A study of Homo sapiens with 19 samples.

Results

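Substituted forms of the elements CMV584, GP0002 and GP0024 were followed through QUASARR-seq, a massively parallel reporter assay that reads promoter and enhancer activity of the same DNA. They were chosen by name, as the elements of set 1 whose names do not begin with K and carry a base change before the orientation, such as CMV584_GG543TT.fwd, and number 12 of the 1534 elements of set 1 and of 3422 different element names in the series. CMV584 gave 7 of them, 2 in the forward (fwd) and 5 in the reverse (rev) orientation, GP0002 gave 3 and GP0024 gave 2. Plasmids of set 1 carried each element with the minimal promoter pMYC and a pair of barcodes, paBC and eaBC, and were electroporated into K-562, an established human leukaemia line, at 20 µg per electroporation with harvest after 6 h, 5 electroporations being pooled per technical replicate. The promoter read-out is RNA over DNA of paBC and the enhancer read-out is RNA over DNA of eaBC. Each read-out had 2 RNA and 2 DNA libraries, numbered as replicates 1 and 2, and no group was treated further. The DNA libraries are plasmid DNA recovered from the cells and give the background against which RNA is read. The labels do not say whether these replicates are separate cultures, so p-values measure the spread between these libraries, which may be technical.

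A promoter is where transcription starts, whereas an enhancer raises transcription from a promoter elsewhere and can do so in either orientation. CMV is the usual short name of the cytomegalovirus immediate-early enhancer and promoter, which is widely used to drive strong expression in cultured mammalian cells and holds repeated sites for transcription factors. The labels do not spell out CMV584 or GP, nor where positions in the names are counted from. A name is read here as base or bases before the change, position, and base or bases after it, so that CMV584_GG543TT names a change of GG to TT at position 543.

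The 7 CMV584 changes lay between positions 523 and 564, a stretch of 42 bases, and no change was present in both orientations. GP0002 carried A323G or G326T, and GP0024 carried G247T. Of the 12 names, 11 (91.7%) read G-to-T or C-to-A, the same change on opposite strands, and A323G was the exception. Among the 199 substituted K elements of set 1, 44 (22.1%) read so. A change of 2 bases was named in 5 of the 12 and in 16 of the 199. The set 1 tables hold none of the 12 elements in unsubstituted form, while 25 of all 211 substituted elements of set 1 have theirs there. The comparisons below are therefore between substitutions of 1 element, or between orientations of 1 substitution, and say nothing of a loss or gain against the unsubstituted element.

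Depth is given as reads inferred from the deposited values and summed over the listed elements. Promoter depth was 10701434 to 10880944 reads per DNA library and 6617407 to 6916053 per RNA library. Enhancer depth was lower, at 3032786 to 3052549 reads per DNA library and 1260027 to 1475068 per RNA library. The 12 elements had 271 to 8263 DNA reads and 214 to 31888 RNA reads per promoter library, and 102 to 2669 DNA reads and 593 to 4455 RNA reads per enhancer library. Values below are the deposited ones, which behave as reads divided by 1 factor per library. Their DNA values lay below the median of the table for 11 of 12 elements in the promoter and 10 of 12 in the enhancer libraries. For CMV584 they ranged from 14.0 to 87.9 in the promoter libraries, where the medians were 282 and 280, and from 25.0 to 162 in the enhancer libraries, where the medians were 378 and 377. The part of low DNA in the ratios was not tested.

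All 12 elements stood above the zero point of both read-outs. In the authors' deposited table, 12 of 12 were called higher in RNA than in DNA as promoters and 12 of 12 as enhancers, at an adjusted limma p of at most 7.6e-07 and 9.7e-13. Over all elements the same call was made for 56.1% (857 of 1528) as promoters and 54.6% (835 of 1528) as enhancers. The median log2 fold change of the 12 was 2.29 as promoters and 4.67 as enhancers, against 0.39 and 0.23 over all elements and 1.98 and 1.76 over the 197 tested substituted K elements. The count of 12 held in every alternative fit of the promoter read-out. As enhancers 10 were left where a log2 fold change of at least 1 was also required, the 2 missing being those of GP0024.

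CMV584 in the forward orientation gave the highest promoter RNA/DNA ratios of set 1 and high enhancer ratios. CMV584_GG543TT.fwd had promoter DNA values of 42.7 and 44.2 and RNA values of 5402 and 6175 in replicates 1 and 2. Its log2 RNA/DNA ratio was 7.05 ± 0.10 (SD, n = 2), a 133-fold excess of RNA. CMV584_CC526AA.fwd had promoter DNA values of 87.9 and 86.0 and RNA values of 6848 and 7931. The ratio was 6.41 ± 0.17 (SD, n = 2), or 84.8-fold. These were ranks 1 and 2 of 1528. In the enhancer libraries, CMV584_GG543TT.fwd had DNA values of 59.8 and 62.8 and RNA values of 2016 and 1714, with a ratio of 4.92 ± 0.22 (SD, n = 2). CMV584_CC526AA.fwd had DNA values of 113 and 129 and RNA values of 3575 and 3405, with a ratio of 4.85 ± 0.18 (SD, n = 2). These were ranks 5 and 7 of 1528. In both read-outs RNA exceeded DNA many times over in each replicate, without overlap.

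The 2 forward substitutions, 17 positions apart, differed as promoters. The ratio of GG543TT was higher than that of CC526AA by 0.65 on the log2 scale (SE 0.05, 95% interval 0.51 to 0.78), with differences of 0.70 and 0.60 in replicates 1 and 2, and an adjusted limma p of 0.0011. As enhancers the difference was 0.07 (95% interval -0.19 to 0.33, adjusted limma p 0.65). The difference between the read-outs was itself 0.58 (SE 0.11, adjusted limma p 0.012, and 0.057 without promoter DNA replicate 1). CC526AA, the lower of the pair, had the higher DNA value in every library of both read-outs, and the part of that in the difference was not tested. Over all 246 pairs of substitutions, the difference in promoter ratio was set beside the difference in DNA level of the enhancer libraries. Pearson r was 0.10 and rho 0.01 as a description, with elements and libraries shared between pairs. For the enhancer ratio beside the DNA level of the promoter libraries, Pearson r was 0.11 and rho 0.07. Of these pairs 12 were of CMV584 and GP0002, so the values do not describe the forward pair. No conclusion on the part of DNA level is drawn from them.

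CMV584 in reverse had moderate promoter ratios and, as an enhancer, some of the highest ratios of set 1. In the promoter libraries the 5 reverse substitutions lay between ranks 286 and 494 of 1528. CMV584_C523A.rev had DNA values of 27.4 and 25.1 and RNA values of 102 and 92.8, a ratio of 1.89 ± 0.01 (SD, n = 2). CMV584_GG546TT.rev had DNA values of 31.2 and 28.7 and RNA values of 173 and 156, a ratio of 2.45 ± 0.02 (SD, n = 2). For CMV584_G550T.rev the DNA values were 14.2 and 14.0 and the RNA values 67.6 and 53.2, a ratio of 2.09 ± 0.23 (SD, n = 2). This last element had the fewest reads of the 12, 271 and 278 in DNA and 214 and 236 in RNA, and the widest spread between replicates. CMV584_GG559TT.rev had DNA values of 85.8 and 78.9 and RNA values of 211 and 207, a ratio of 1.35 ± 0.07 (SD, n = 2). For CMV584_GG563TT.rev the DNA values were 27.9 and 28.4 and the RNA values 128 and 120, a ratio of 2.14 ± 0.08 (SD, n = 2). RNA was above DNA in each replicate of all 5. By position the promoter ratio thus ran 1.89 at 523, 2.45 at 546, 2.09 at 550, 1.35 at 559 and 2.14 at 563, with its top and its bottom 13 positions apart.

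In the enhancer libraries the same 5 substitutions took ranks 2, 3, 8, 9 and 10. CMV584_GG546TT.rev had DNA values of 46.8 and 52.1 and RNA values of 1874 and 1758, a ratio of 5.20 ± 0.17 (SD, n = 2), or 36.7-fold. For CMV584_G550T.rev the DNA values were 25.0 and 25.5 and the RNA values 944 and 845, a ratio of 5.14 ± 0.14 (SD, n = 2). CMV584_C523A.rev had DNA values of 48.3 and 44.0 and RNA values of 1280 and 1130, a ratio of 4.70 ± 0.03 (SD, n = 2). These 3 were thus at least 26.0-fold higher in RNA than in DNA on average. CMV584_GG559TT.rev had DNA values of 155 and 162 and RNA values of 4213 and 4000, a ratio of 4.70 ± 0.10 (SD, n = 2). For CMV584_GG563TT.rev the DNA values were 45.1 and 45.0 and the RNA values 1137 and 1121, a ratio of 4.64 ± 0.01 (SD, n = 2). Together with the forward pair, CMV584 held 7 of the 10 highest enhancer ranks of set 1.

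Among the 10 pairs of reverse substitutions, 8 differed as promoters and 5 as enhancers at an adjusted limma p under 0.05. Over all pairs of substitutions of 1 element and orientation in set 1, 53.3% (131 of 246) differed as promoters and 20.4% (51 of 250) as enhancers. Pairs share elements, so these counts are not of independent comparisons. The median size of the difference among the reverse pairs was 0.45 as promoters and 0.44 as enhancers, against 0.20 and 0.20 over all pairs. As promoters, GG559TT was lower than GG546TT by the widest margin, a difference of -1.11 (SE 0.06, 95% interval -1.26 to -0.95, adjusted limma p 5.7e-04), or 2.15-fold. GG559TT was also lower than GG563TT, its neighbour 4 positions away, which stood 0.79 higher (SE 0.07, adjusted limma p 0.0014). Against C523A and G550T it differed by -0.54 (SE 0.05, adjusted limma p 0.0023) and -0.74 (SE 0.12, adjusted limma p 0.0094). Each of these 4 differences had the same sign in both replicates. GG559TT had the highest DNA value of the 5 in every library, and the part of that in its ratio was not tested.

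GG546TT was the highest of the 5 as a promoter, above C523A by 0.56 (SE 0.04, adjusted limma p 9.7e-04). G550T, 4 positions on, differed from it by -0.36 (SE 0.09, adjusted limma p 0.026) and GG563TT by -0.31 (SE 0.07, adjusted limma p 0.019). GG563TT stood above C523A by 0.25 (SE 0.07, adjusted limma p 0.035). The remaining 2 pairs were not told apart. G550T minus C523A was 0.20 (95% interval -0.04 to 0.44, adjusted limma p 0.13) and GG563TT minus G550T was 0.05 (95% interval -0.21 to 0.31, adjusted limma p 0.69). The pairs 4 positions apart thus differed by 0.36 and 0.79 in size, and the pair 40 positions apart by 0.25. Without promoter DNA replicate 1, and likewise without DNA replicate 2, 4 promoter calls were left, those of GG546TT with C523A, GG559TT with GG546TT, GG563TT with GG559TT and the forward pair. The call of GG563TT with C523A was lost without any 1 of the 4 promoter libraries (adjusted limma p 0.063 to 0.13).

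As enhancers GG546TT and G550T had the highest means of the 5 reverse substitutions, and 5 of their 6 differences from the other 3 were called without a replicate block. With the replicate number as a block, which pairs RNA and DNA libraries of the same number, none of these 5 calls was kept (adjusted limma p 0.057 to 0.068). GG559TT and GG563TT lay below GG546TT by differences of -0.50 (SE 0.07, adjusted limma p 0.019) and -0.55 (SE 0.09, adjusted limma p 0.024). They lay below G550T by differences of -0.44 (SE 0.07, adjusted limma p 0.024) and -0.49 (SE 0.08, adjusted limma p 0.025). G550T stood above C523A by 0.44 (SE 0.08, adjusted limma p 0.036), whereas GG546TT minus C523A, 0.50, missed the threshold (95% interval 0.16 to 0.83, adjusted limma p 0.063). Between GG546TT and G550T the difference was -0.06 (95% interval -0.28 to 0.16, adjusted limma p 0.65). Among the other 3 the differences lay between -0.06 and -0.0043, with 95% intervals within -0.32 and 0.27. None of these 5 calls was kept without enhancer DNA replicate 1 or 2, at adjusted limma p-values of 0.083 to 0.14.

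Each reverse substitution was also set against the median of the other 4. That median was taken within each library over log2 values. Its DNA and RNA values can come from different elements, so it is not the median of the other ratios. The mean in its place gives the difference from the mean of the other ratios. As promoters GG559TT stood -0.67 from that median (SE 0.05, adjusted limma p 0.0039), C523A -0.41 (SE 0.04, adjusted limma p 0.0058) and GG546TT 0.44 (SE 0.04, adjusted limma p 0.0058). These 3 of 5 compare with 38.2% (13 of 34) of all substitutions that could be so compared. As enhancers GG546TT stood 0.52 above the others (SE 0.10, adjusted limma p 0.028), 1 of 5 against 15.4% (6 of 39) over all. With the replicate number as a block GG563TT was called as well, at -0.30 from the others (adjusted limma p 0.038, and 0.073 without the block). GG559TT against that median differed between the read-outs by -0.68 (SE 0.09, adjusted limma p 0.0057), 1 of 5 against 11.8% (4 of 34) over all. Against the mean of the other 4, GG559TT stood -0.80 as a promoter and -0.22 as an enhancer. The difference between the read-outs was then -0.57 (adjusted limma p 0.011), and GG563TT was called too, at 0.48 (adjusted limma p 0.012). All 3 promoter calls were lost without promoter DNA replicate 1 or 2 (adjusted limma p 0.054 to 0.060), and the enhancer call was lost without enhancer RNA replicate 1 or 2 (0.16 and 0.10). With the mean in place of the median, C523A stood -0.12 from the others as a promoter and was not called (adjusted limma p 0.073).

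The forward and reverse substitutions of CMV584 thus stood apart in the promoter read-out and not in the enhancer read-out. As promoters the forward ratios of 6.41 and 7.05 did not overlap with the reverse ratios of 1.35 to 2.45, and the lowest forward mean exceeded the highest reverse mean by 3.95 on the log2 scale. As enhancers the forward ratios of 4.85 and 4.92 lay within the reverse range of 4.64 to 5.20. No substitution was listed in both orientations, so the position changed and the orientation cannot be told apart in this contrast, and it was given no test. RSV, usually short for Rous sarcoma virus, is also listed in set 1. Its promoter ratios were 4.85 ± 0.03 forward and 2.59 ± 0.14 reverse (SD, n = 2 each). Its enhancer ratios were 3.24 ± 0.11 and 2.70 ± 0.15 (SD, n = 2 each). Over all elements listed in both orientations, 49.5% (352 of 711) were called higher forward as promoters. Whether CMV584 and RSV share a trait was not tested.

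The unsubstituted CMV584.rev was listed with the minimal promoter pGAPDH in set 2, a separate plasmid pool and table with its own normalization. There its promoter DNA values were 156 and 149 and RNA values 125 and 127, a log2 ratio of -0.28 ± 0.07 (SD, n = 2), rank 1945 of 3044. Its enhancer DNA values were 171 and 153 and RNA values 769 and 694, a ratio of 2.17 ± 0.01 (SD, n = 2), rank 2 of 3043. By its labels set 2 pooled the minimal promoters pGAPDH, pMYC and pAPOBEC3F, and only its pGAPDH values were read here. Whether CMV584.rev is also listed there with pMYC was not looked at. The pGAPDH values and those of set 1 differ in minimal promoter and library, and their levels are given side by side without a comparison.

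The 2 forward substitutions of GP0002 had like promoter ratios and unlike enhancer ratios. GP0002_A323G.fwd had promoter DNA values of 185 and 184 and RNA values of 3268 and 2852, a ratio of 4.05 ± 0.14 (SD, n = 2). GP0002_G326T.fwd had promoter DNA values of 229 and 224 and RNA values of 4022 and 3552, a ratio of 4.06 ± 0.11 (SD, n = 2). They took ranks 68 and 67, next to each other. In the enhancer libraries GP0002_A323G.fwd had DNA values of 236 and 236 and RNA values of 2436 and 2420, a ratio of 3.36 ± 0.01 (SD, n = 2) and rank 21. GP0002_G326T.fwd had enhancer DNA values of 311 and 310 and RNA values of 1204 and 1075, a ratio of 1.87 ± 0.11 (SD, n = 2) and rank 182. The DNA of G326T was higher and its RNA lower in both enhancer replicates.

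At 3 positions apart, G326T minus A323G was 0.01 as a promoter (95% interval -0.10 to 0.12, adjusted limma p 0.86) and -1.49 as an enhancer (SE 0.08, 95% interval -1.72 to -1.26, adjusted limma p 0.0015), a 2.81-fold lower ratio. The enhancer difference was -1.42 and -1.56 in replicates 1 and 2 and took rank 8 in size among 250 pairs. The difference between the read-outs was 1.50 (SE 0.09, 95% interval 1.28 to 1.72, adjusted limma p 1.2e-04). It was called in every alternative fit, with values of 1.42 to 1.58 and adjusted limma p-values up to 0.0042. Over all pairs such a difference between read-outs was called for 25.2% (62 of 246), and for 6 of the 12 pairs of CMV584 and GP0002. The other 5 were the forward CMV584 pair and 4 reverse pairs, of which GG563TT minus G550T was not called with the replicate number as a block (adjusted limma p 0.051). GG563TT minus GG559TT was the largest of those, at 0.79 as a promoter and -0.05 as an enhancer, a difference of 0.85 (SE 0.10, adjusted limma p 0.0019).

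Both orientations were listed for GP0002_G326T and GP0024_G247T, which differed between orientations in opposite directions. GP0002_G326T.rev had promoter DNA values of 191 and 192 and RNA values of 1218 and 1104, a ratio of 2.60 ± 0.10 (SD, n = 2). Its enhancer DNA values were 261 and 278 and RNA values 781 and 759, a ratio of 1.52 ± 0.09 (SD, n = 2). GP0002_G326T was thus higher forward than reverse in both read-outs. The forward ratio exceeded the reverse ratio by 1.46 as a promoter (SE 0.05, adjusted limma p 1.2e-04), or 2.76-fold, and by 0.35 as an enhancer (SE 0.07, adjusted limma p 0.037). The promoter difference exceeded the enhancer difference by 1.11 (SE 0.09, adjusted limma p 1.3e-04).

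GP0024_G247T gave the lowest enhancer ratios of the 12. GP0024_G247T.fwd had promoter DNA values of 273 and 269 and RNA values of 787 and 796, a ratio of 1.55 ± 0.03 (SD, n = 2) and rank 452. GP0024_G247T.rev had promoter DNA values of 421 and 425 and RNA values of 1671 and 1520, a ratio of 1.91 ± 0.11 (SD, n = 2) and rank 382. The reverse form was thus the higher in both replicates. In the enhancer libraries GP0024_G247T.fwd had DNA values of 422 and 427 and RNA values of 644 and 647, a ratio of 0.61 ± 0.01 (SD, n = 2). For GP0024_G247T.rev the enhancer DNA values were 649 and 649 and the RNA values 1143 and 1234, a ratio of 0.87 ± 0.08 (SD, n = 2). These were ranks 559 and 447.

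Forward minus reverse was -0.37 as a promoter (SE 0.07, adjusted limma p 0.011, and 0.062 without promoter DNA replicate 1) and -0.27 as an enhancer (SE 0.06, adjusted limma p 0.049, and 0.089 with the replicate number as a block) for GP0024_G247T. The difference between read-outs was -0.10 (95% interval -0.33 to 0.13, adjusted limma p 0.41). Over all 711 elements listed in both orientations, 70.7% (503 of 711) differed between orientations as promoters. Those called higher forward as promoters were 49.5% (352 of 711). As enhancers 23.8% (169 of 711) differed. The promoter and enhancer differences differed from each other for 59.0% of 709. Neither enhancer call, for GP0002_G326T or GP0024_G247T, was kept without enhancer DNA replicate 1 or 2, at adjusted limma p-values of 0.19 to 0.31.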

How the data were processed

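The tools fastp, edgeR and limma and the build hg38 are those named in the submitters' processing notes, while the aligner, barcode matching and order of steps are not given in the sources used here. The deposited signal values behave as reads divided by 1 factor per library: 100% were whole multiples of 1 step (tolerance 0.02), taken as 1 read. The deposited log2 fold changes, score columns (moderated t, log odds) and p-values are the authors' limma output, per the file headers. Members, lists and tests were chosen with earlier results of these data known.

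Ratios are log2 RNA/DNA per replicate with 0.5 reads added, given as mean and SD, and differed from the authors' log2 fold changes by at most 0.0093. Differences between substitutions or orientations were taken within each library and fitted as RNA minus DNA with limma 3.58.1 in R 4.3.3 (lmFit, eBayes) over all such pairs of the table, adjusted by Benjamini-Hochberg over that table, without a replicate block. Read-outs were compared as an interaction over 8 libraries. The fits were also run on simulated data with independent libraries and the same spread for DNA and RNA. No outcome of that run is given or used as support here. Elements were named where an element had at most 8 substitutions in an orientation, which takes all 12. Elements without a deposited test, 6 and 5 per table, none of them among the 12, were left out. The pair and orientation comparisons were added after seeing which elements are listed, since set 1 lacks the unsubstituted forms of the 12. Alternatives were an own limma fit of RNA over DNA, with and without centring at the table median, 5 reads added, a minimum of 50 DNA reads, a minimum log2 change of 0.5, a replicate block, the mean in place of the median, an intensity trend, robust eBayes and each library left out. RNA replicates 1 and 2 and DNA replicates 1 and 2 differed by more than sampling noise in both read-outs. PCR reads carry no molecular identifiers, so reads are not independent molecules.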

Additional observations from a re-analysis of the deposited data

Results flagged for a closer look

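These results were singled out because the test of the difference between promoter and enhancer read-outs passed the threshold, with values on the log2 scale, promoter minus enhancer. GP0002_G326T.fwd minus GP0002_A323G.fwd had 1.50, and the forward minus reverse difference of GP0002_G326T had 1.11. CMV584_GG543TT.fwd minus CMV584_CC526AA.fwd had 0.58. Among the reverse substitutions of CMV584, GG563TT minus GG559TT had 0.85, GG563TT minus G550T 0.54, GG559TT minus GG546TT -0.61 and GG559TT minus C523A -0.54. GG559TT against the median of the other 4, taken within each library, had -0.68, and against their mean -0.57. GG559TT enters 4 of these 8 results, which are therefore not independent, and its DNA values were the highest of the reverse substitutions. GG563TT minus G550T lost its call with the replicate number as a block (adjusted limma p 0.051), with an intensity trend (0.05003) and without promoter DNA replicate 1 or 2 (0.11 and 0.097), enhancer DNA replicate 1 or 2 (0.079 and 0.074) or enhancer RNA replicate 1 (0.058). GG559TT minus C523A lost its call without promoter DNA replicate 1 or 2 (adjusted limma p 0.072 and 0.084) or promoter RNA replicate 1 (0.066). The forward CMV584 pair lost its call without promoter DNA replicate 1 (adjusted limma p 0.057). With 2 libraries per group, single samples could not be tested as outliers.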

How the results depend on the processing

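Across 57 single values and 661 alternative values, 563 kept direction and side of the threshold, 68 lost a call, 12 gained one and 18 changed sign, all of the latter being uncalled values. The GP0002 pair as enhancer and between read-outs, and GP0002_G326T between orientations as promoter and between read-outs, kept their calls in every alternative run. Counts of calls moved as follows, the cause not being tested beyond the fewer samples of a left-out library. Against the median of the others, 3 promoter calls became 1 with a log2 change of at least 0.5 and 2 with the mean. With 1 library left out they became 0 to 4. The 1 enhancer call became 2 with at least 50 DNA reads, 2 with the replicate block, 2 with the mean, 2 with an intensity trend and 0 to 1 with a library left out. The 1 call between read-outs became 2 with at least 50 DNA reads, 2 with the mean and 1 to 2 with a library left out. For pairs, 9 promoter calls became 6 with a log2 change of at least 0.5 and 8 with an intensity trend. They became 4 to 9 with a library left out. The 6 pair calls between read-outs became 5 with the replicate block or an intensity trend and 3 to 7 with a library left out. The 6 enhancer pair calls became 7 with at least 50 DNA reads and 7 with an intensity trend. They became 1 with the replicate block, 3 with a log2 change of at least 0.5 and 1 to 5 with a library left out. For orientations, 2 promoter calls became 1 with that minimum and 1 to 2 with a library left out, and 2 enhancer calls became 1 with the replicate block, 0 with that minimum and 0 to 2 with a library left out. The 12 enhancer calls of RNA over DNA became 10 where the fold change also had to reach 1 on the log2 scale. Apart from the calls given with it, the replicate block changed no call. Per the labels' protocols the cells of a technical replicate were divided between RNA and DNA libraries, but whether the library numbers are those replicates is not stated, and the correlation of deviations of same-numbered libraries was -0.02 (promoter) and 0.41 (enhancer).

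Signs changed against the mean of the others for CMV584_G550T.rev (0.13) and CMV584_GG563TT.rev (0.19) as promoters, CMV584_GG559TT.rev as enhancer (-0.22), and CMV584_C523A.rev (0.10) and CMV584_GG546TT.rev (0.18) between read-outs. With 5 reads added, GG559TT minus C523A as enhancers was 0.0159. With 1 library left out, the promoter values ranged from -0.10 to 0.0403 for GG563TT.rev against the others, -0.0774 to 0.18 for GG563TT minus G550T and -0.0039 to 0.0221 for the GP0002 pair. The enhancer values ranged from -0.0423 to 0.0682 for GG559TT.rev against the others, -0.12 to 0.0010 for G550T minus GG546TT, -0.10 to 0.0945 for GG559TT minus C523A, -0.14 to 0.0230 for GG563TT minus C523A and -0.0114 to 0.15 for the CMV584 forward pair. Between read-outs they ranged from -0.20 to 0.0245 for GG546TT.rev against the others and -0.0756 to 0.21 for GG546TT minus C523A. The planned comparisons with unsubstituted elements and their z test gave no value here, since none of the 12 has its own in set 1. The planned edgeR and DESeq2 fits were not run, since the deposited values are scaled and the reads used here are inferred from their step. Depth limits CMV584_G550T.rev most, with 102 and 105 enhancer DNA reads.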
